A study of Mus musculus with 12 samples.

Results

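Egr1, Egr2 and Egr3, Nr4a1, Nr4a2 and Nr4a3, and Ier2 and Ier3 were followed as a set of early response genes in bone marrow-derived macrophages (BMDMs), which are macrophages grown from mouse bone marrow with M-CSF. They are 8 of the 43453 genes in the count table and were taken by name, with earlier results of these data known. For each gene the transcript with the highest total over the 12 libraries was used. The cells came from C57BL/6 mice carrying floxed Tlr4 alleles (tlr4f/f) or floxed alleles with the lysM-cre transgene (tlr4f/f-lysM-cre), and were cultured for 7 days with M-CSF at 50 ng/mL. They were then left untreated (LPS-) or given LPS, the bacterial ligand of TLR4, at 1 µg/mL for 6 h (LPS+). All 4 groups thus share the floxed alleles and the M-CSF culture, and each holds 3 libraries. Cre in this line is expressed from the Lyz2 (lysozyme M) locus, which is active in macrophages, neutrophils and some other myeloid cells, so that Tlr4 is deleted only in cells in which that locus has been active. The labels do not say whether the 3 libraries of a group came from separate mice or cultures, and the p-values below measure the spread between these libraries, which may be technical.

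Immediate-early genes are transcribed within minutes of a stimulus, without new protein synthesis, and many return toward their starting level within hours. Downstream of TLR4, the kinase TPL2 (Map3k8) feeds the ERK pathway, which acts through SRF and its ELK partners on Egr promoters, CREB acts on Nr4a promoters, and NF-kB acts on Ier3. EGR proteins are zinc finger transcription factors held in check by the corepressors NAB1 and NAB2, NR4A proteins are orphan nuclear receptors that bind DNA alone or, for NR4A1 and NR4A2, with RXR, and IER2 and IER3 are small proteins linked to growth and to survival under stress.

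The column headings of the table go against the targeted gene, so every group name below is the heading of its columns. Levels are TMM-scaled CPM, the reads of a gene as parts per 1e6. Tlr4 ranged from 76.7 to 150.0 CPM under LPS- tlr4f/f, 93.1 to 116 under LPS- tlr4f/f-lysM-cre, 24.7 to 31.2 under LPS+ tlr4f/f and 24.5 to 27.6 under LPS+ tlr4f/f-lysM-cre. The counts span the whole transcript, so reads from exons that are not deleted remain in them. Lyz2, the locus that carries Cre, was at 5907 CPM or more in every LPS- library and at 75.9 CPM or less in every LPS+ library. Il1b, a cytokine gene induced by LPS, was at 1606 CPM or more in all 6 tlr4f/f-lysM-cre libraries, and at 6.92 CPM or less in the 6 tlr4f/f libraries. If the heading LPS+ tlr4f/f is exchanged with LPS- tlr4f/f-lysM-cre, Tlr4 and Lyz2 divide the libraries by genotype and Il1b divides them by LPS. Each comparison is therefore given with its meaning as headed and with its meaning under the exchange. The exchange renames the groups and leaves every fit as it is. Under it, the LPS- headings together are the tlr4f/f cells and the LPS+ headings the tlr4f/f-lysM-cre cells. The tlr4f/f headings together are then the cells without LPS and the tlr4f/f-lysM-cre headings the cells with LPS. LPS- tlr4f/f-lysM-cre over LPS- tlr4f/f is the genotype difference without LPS as headed and the LPS response of tlr4f/f cells under the exchange. LPS+ tlr4f/f-lysM-cre over LPS+ tlr4f/f is the genotype difference with LPS as headed and the LPS response of tlr4f/f-lysM-cre cells under the exchange. LPS+ tlr4f/f over LPS- tlr4f/f is the LPS response of tlr4f/f cells as headed and the genotype difference without LPS under the exchange. LPS+ tlr4f/f-lysM-cre over LPS- tlr4f/f-lysM-cre is the LPS response of tlr4f/f-lysM-cre cells as headed and the genotype difference with LPS under the exchange.

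Between 33577440 and 56445989 counts per library were left after 1 transcript per gene was taken. Libraries of a group varied more under LPS- (common biological coefficient of variation, edgeR, 31.9% and 30.8%) than under LPS+ (8.13% and 8.37%). Macrophage markers (10 genes) were found in every group, with summed levels of 14023 to 29374 CPM in the LPS- libraries and 4653 to 8096 CPM in the LPS+ libraries. Without Lyz2 the other 9 summed to 6397 to 7490 CPM in LPS- tlr4f/f, 10434 to 13616 in LPS- tlr4f/f-lysM-cre, 4642 to 4914 in LPS+ tlr4f/f and 7821 to 8020.2 in LPS+ tlr4f/f-lysM-cre, so that LPS- and LPS+ no longer formed separate ranges. Fibroblast and stroma markers (9 genes, all found in every group) summed to 11.0 to 690.3 CPM under LPS- tlr4f/f, 189 to 1524 under LPS- tlr4f/f-lysM-cre, 23.4 to 28.1 under LPS+ tlr4f/f and 48.3 to 61.9 under LPS+ tlr4f/f-lysM-cre. In bulk RNA, fewer cells of a type and less RNA per cell cannot be told apart.

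The stretches before the annotated starts of 5 of the members are shown because they hold the sites through which these genes are usually described: cAMP response element (CRE) cores TGACG on either strand in the Nr4a genes and Egr2, a CArG box (the SRF site) in Egr2, and an NF-kB site in Ier3. These matches are in capitals. The sequences are from RefSeq (GRCm38.p6), 5′ to 3′ on the strand of the gene, and end at the base before a start, or earlier where an annotated exon begins. They lie at chr15:101266596-101266845 for Nr4a1 (plus strand, within the annotated gene, before its downstream start), chr2:57124004-57124253 for Nr4a2 (minus strand), chr4:48045055-48045152 for Nr4a3 (plus strand), chr10:67537619-67537868 for Egr2 (plus strand, before 1 of its 5 listed starts) and chr17:35821463-35821683 for Ier3 (plus strand).
Nr4a1: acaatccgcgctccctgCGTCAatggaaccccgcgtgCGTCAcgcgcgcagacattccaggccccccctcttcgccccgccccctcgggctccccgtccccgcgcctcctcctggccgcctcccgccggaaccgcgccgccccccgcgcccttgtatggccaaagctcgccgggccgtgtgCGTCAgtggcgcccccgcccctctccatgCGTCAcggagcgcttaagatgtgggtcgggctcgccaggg
Nr4a2: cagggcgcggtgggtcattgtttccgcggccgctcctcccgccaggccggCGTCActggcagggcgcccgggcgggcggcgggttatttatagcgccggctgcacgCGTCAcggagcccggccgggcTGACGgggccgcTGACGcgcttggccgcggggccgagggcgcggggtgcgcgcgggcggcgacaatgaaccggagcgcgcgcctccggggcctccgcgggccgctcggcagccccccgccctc
Nr4a3: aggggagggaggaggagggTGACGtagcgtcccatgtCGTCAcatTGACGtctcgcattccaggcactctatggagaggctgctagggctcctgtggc
Egr2: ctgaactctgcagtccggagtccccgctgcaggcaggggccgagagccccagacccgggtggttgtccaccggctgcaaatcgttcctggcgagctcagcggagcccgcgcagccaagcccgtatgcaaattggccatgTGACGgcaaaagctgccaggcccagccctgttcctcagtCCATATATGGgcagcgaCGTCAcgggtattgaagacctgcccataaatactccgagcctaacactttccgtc
Ier3: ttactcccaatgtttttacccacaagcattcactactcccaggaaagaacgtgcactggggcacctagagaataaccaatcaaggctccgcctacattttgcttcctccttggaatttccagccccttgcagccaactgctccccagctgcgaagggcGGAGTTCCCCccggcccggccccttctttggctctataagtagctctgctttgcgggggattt

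Matches were counted in the table's 300-base windows, which reach 250 bases before and 50 after each start. A CRE core was found in 20.8% of 32851 windows. At least 4 cores, counted over both strands, were found in 0.231% of the windows and in each of the 3 Nr4a windows. The 4th core of Nr4a3 lies past the stretch shown. This count of cores was chosen after the matches were seen. Egr2 held 2 cores, and Ier3 none. The CArG box was found in 1.63% of the windows and, of these 5 genes, in Egr2 alone, where the match shown begins 72 bases before the start. Another CArG match lies before a start of Egr2 farther upstream. Egr1, Egr3 and Ier2 were not matched, so these counts say nothing of their promoters. The NF-kB site was found in 8.46% of the windows, among them those of Ier3, of Nr4a1 (across its start) and of a start of Egr2 farther upstream. The full CRE TGACGTCA and the NR4A site AAAGGTCA were in none of the windows of these 5 genes, against 1.79% and 1.51% of all windows. These are matches of letters and not sites shown to be bound.

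Among the EGR genes, Egr2 had the highest mean level in 3 of the 4 groups, and in LPS- tlr4f/f-lysM-cre Egr1 was higher, per kilobase as well. Egr2 (chr10:67535475-67542188 in GRCm38, plus strand), a transcription factor that M-CSF cultures of macrophages express, was at 33.03, 99.4 and 31.7 CPM in LPS- tlr4f/f, 18.6, 11.5 and 15.1 in LPS- tlr4f/f-lysM-cre, 196, 200.2 and 192 in LPS+ tlr4f/f and 114, 121 and 136 in LPS+ tlr4f/f-lysM-cre. No groups overlapped. LPS+ tlr4f/f was the highest, LPS+ tlr4f/f-lysM-cre came next, and LPS- tlr4f/f-lysM-cre was the lowest. Replicate 2 of LPS- tlr4f/f stood above the other libraries of its group.

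Egr1, the best known serum response factor target of the family, was at 11.7, 4.04 and 0.277 CPM in LPS- tlr4f/f, 31.1, 8.94 and 51.5 in LPS- tlr4f/f-lysM-cre, 8.05, 8.13 and 5.34 in LPS+ tlr4f/f and 5.47, 3.50 and 2.41 in LPS+ tlr4f/f-lysM-cre. The LPS- tlr4f/f-lysM-cre libraries were above all others except for 1 overlap, since LPS- tlr4f/f replicate 1 lay above their lowest. The means of the other 3 groups, 7.17 ± 1.58 (SD), 5.34 ± 5.82 and 3.79 ± 1.55 CPM, followed each other within overlapping ranges, although LPS+ tlr4f/f-lysM-cre reached only just above the lowest library of LPS+ tlr4f/f. Egr3 (chr14:70077203-70082614, plus strand), a related factor, was near the lower end of detection, between 0.133 and 1.19 CPM in the 12 libraries and from 5 to 48 counts, and the ranges of neighbouring groups overlapped throughout.

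The Nr4a genes shared their highest group, LPS- tlr4f/f-lysM-cre. Nr4a1 (chr15:101254269-101274795, plus strand), which encodes NUR77, was at 8.77, 3.78 and 5.91 CPM in LPS- tlr4f/f, 34.3, 7.23 and 28.4 in LPS- tlr4f/f-lysM-cre, 1.60, 2.00 and 1.97 in LPS+ tlr4f/f and 1.85, 2.18 and 1.74 in LPS+ tlr4f/f-lysM-cre. Every LPS- library lay above every LPS+ library, which under the exchange is tlr4f/f above tlr4f/f-lysM-cre, and the 2 LPS+ groups overlapped.

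Nr4a2 (chr2:57106830-57124003, minus strand), which encodes NURR1, was at 0.889, 0.394 and 0.388 CPM in LPS- tlr4f/f, 3.52, 2.30 and 20.04 in LPS- tlr4f/f-lysM-cre, 0.315, 0.415 and 0.366 in LPS+ tlr4f/f and 0.904, 0.826 and 0.446 in LPS+ tlr4f/f-lysM-cre. Only LPS- tlr4f/f-lysM-cre stood apart from every other group, and its replicate 3 was several times its other libraries. The LPS+ groups did not overlap either but nearly met, at 0.415 and 0.446 CPM, and LPS- tlr4f/f overlapped both.

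Nr4a3 (chr4:48045153-48086447, plus strand), which encodes NOR1, had 11, 0 and 1 counts in LPS- tlr4f/f, 455, 215 and 143 in LPS- tlr4f/f-lysM-cre, 3, 11 and 5 in LPS+ tlr4f/f and 97, 55 and 82 in LPS+ tlr4f/f-lysM-cre. The corresponding group means were 0.0688 ± 0.104, 7.69 ± 3.998, 0.145 ± 0.122 and 1.86 ± 0.369 CPM (SD, n = 3). The count of 0 allows up to 3 counts, or 0.0493 CPM in that library, for counting error alone. The tlr4f/f groups overlapped near 0, and the tlr4f/f-lysM-cre groups lay above them and apart from each other.

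Ier2 and Ier3 had the same 2 highest groups as Nr4a3, at much higher levels. Ier3 (chr17:35821684-35822923, plus strand), the NF-kB target IEX-1, was at 19.5, 13.3 and 1.957 CPM in LPS- tlr4f/f, 655, 211 and 287 in LPS- tlr4f/f-lysM-cre, 6.74, 5.66 and 6.65 in LPS+ tlr4f/f and 80.2, 80.3 and 80.8 in LPS+ tlr4f/f-lysM-cre. The tlr4f/f-lysM-cre groups lay above the others and apart from each other, while the tlr4f/f groups overlapped. The coefficient of variation of the 3 LPS+ tlr4f/f-lysM-cre libraries was 0.401%. That is less than counting error alone for their 3460, 2918 and 3627 counts, so it does not measure how steady the gene is.

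Ier2 (chr8:84661331-84662852, minus strand), a nuclear protein gene of the serum response, was at 39.3, 25.8 and 35.7 CPM in LPS- tlr4f/f, 96.0, 83.3 and 104.5 in LPS- tlr4f/f-lysM-cre, 25.5, 22.7 and 22.4 in LPS+ tlr4f/f and 51.0, 51.6 and 45.0 in LPS+ tlr4f/f-lysM-cre. No groups overlapped, although the lowest LPS- tlr4f/f library was close to the highest of LPS+ tlr4f/f.

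**Figure D1:**
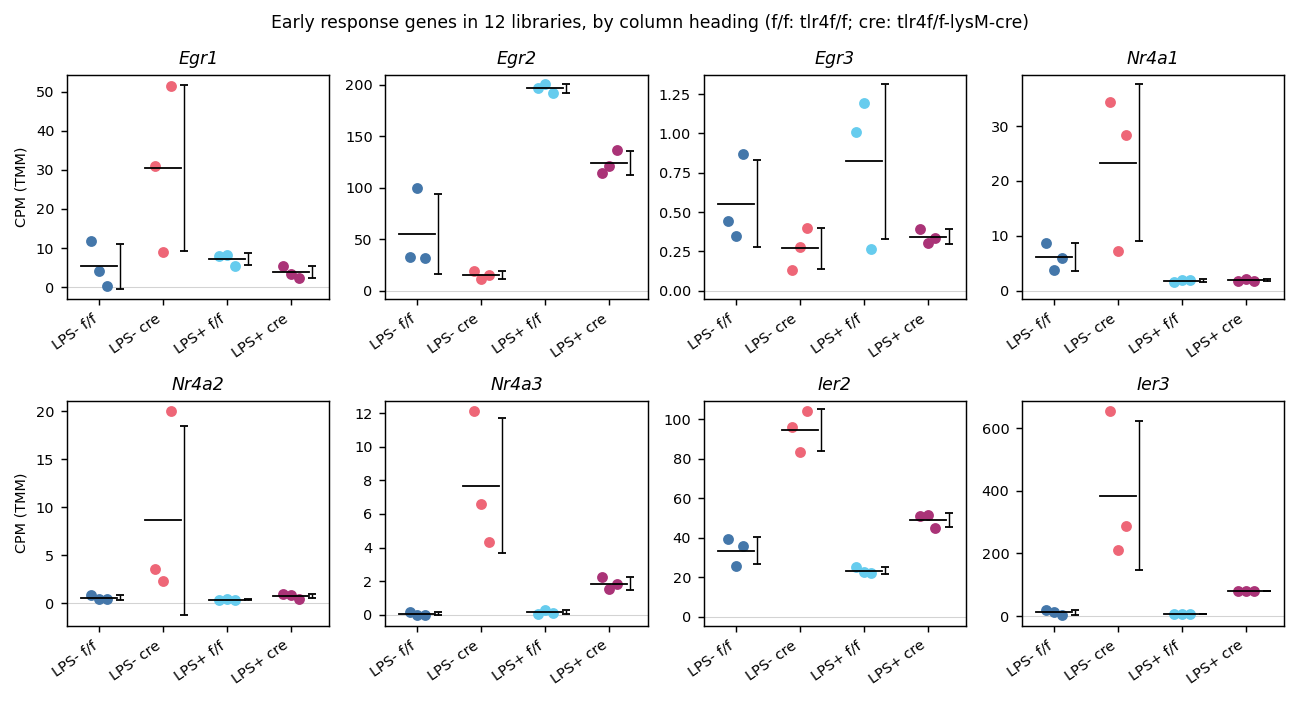
Level of each early response gene (TMM-scaled CPM, linear axes that differ between panels) in the 12 libraries by column heading; points are libraries, horizontal lines group means and vertical bars the SD (n = 3). Ier3 and Ier2 are highest under LPS- tlr4f/f-lysM-cre and next under LPS+ tlr4f/f-lysM-cre, while Egr2 is highest, at 192 to 200.2 CPM, under LPS+ tlr4f/f.

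Per kilobase of the transcript, Ier3 was the highest of the 8 genes in LPS- tlr4f/f-lysM-cre, at 353 ± 218 CPM per kb (SD, n = 3). Ier2 followed at 62.2 ± 7.00 CPM per kb, then Egr1 at 9.93 ± 6.92 and Nr4a1 at 8.35 ± 5.10. The level of Egr3 there was 0.0683 ± 0.0335 CPM per kb. In LPS+ tlr4f/f, the order differed: Egr2 was the highest, at 55.6 ± 1.11 CPM per kb of its curated transcript, above Ier2 at 15.5 ± 1.12 and Ier3 at 5.83 ± 0.551.

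LPS- tlr4f/f-lysM-cre over LPS- tlr4f/f asked what the cre transgene changes without LPS as headed, and what LPS does in tlr4f/f cells under the exchange. Of the 8 genes, 3 rose by the criteria of the study (a change of over 2-fold, with p below 0.01 after adjustment), Ier2, Ier3 and Nr4a3, and none fell. Among all 14649 genes tested, 17.1% were called (9.26% higher, 7.81% lower). With an adjusted p below 0.05, 6 of the 8 and 27.7% of all genes would be called. Ier3 was higher by 5.07 ± 0.95 on the log2 scale (SE, adjusted p = 0.00833). Nr4a3 was higher by 6.75 ± 1.20 (adjusted p = 0.00689), a fitted value that rests on 12 counts in the lower group. It passed the filter only through the higher group, so the size of its difference is uncertain. Without LPS- tlr4f/f replicate 1 the fitted value was 9.39. Ier2 was higher by 1.51 ± 0.21 (adjusted p = 0.00294). The remaining genes did not pass: the differences were 3.98 ± 0.99 for Nr4a2 (adjusted p = 0.0219), 1.94 ± 0.62 for Nr4a1 (0.0495), 2.54 ± 1.21 for Egr1 (0.145), -1.83 ± 0.49 for Egr2 (0.0285) and -1.02 ± 0.66 for Egr3 (0.261). With 1 library left out, they ranged from 2.41 to 4.49 for Nr4a2 and 1.94 to 3.87 for Egr1. Those of Egr2 ranged from -2.10 to -1.09, and those of Egr3 from -1.39 to -0.54. The groups did not overlap for 5 of the 8 genes, as for 54.2% of all genes tested. The calls depended on single libraries: 2 were left without LPS- tlr4f/f replicate 1 or 3, 1 without replicate 2 of either group, and 0 without LPS- tlr4f/f-lysM-cre replicate 1 or 3. The adjusted p over these fits was 0.00721 to 0.0111 for Ier2, 0.00672 to 0.0355 for Ier3 and 0.00347 to 0.025 for Nr4a3, while 1039 to 1683 of all genes were called in them, against 2500 with all libraries. DESeq2 called 6 of the 8 genes and 3997 genes in all. The calls of Nr4a3 and Ier3 were lost with no filter on low counts (adjusted p = 0.0113 and 0.0416) and with the sum over transcripts (0.0235 and 0.0107), and that of Ier3 with the replicate block (0.0107), while the Ier2 call was made in these 3 fits.

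LPS+ tlr4f/f-lysM-cre over LPS+ tlr4f/f asked about the genotype with LPS as headed, and about LPS in tlr4f/f-lysM-cre cells under the exchange. It shares no library with the comparison above. Ier2, Ier3 and Nr4a3 rose, and none of the 8 genes fell. Among all 14551 genes tested, 21.8% were called (10.8% higher, 10.9% lower), and 3 of the 8 and 23.9% of all genes at the looser p of 0.05. Ier3 was higher by 3.66 ± 0.07 on the log2 scale (adjusted p = 2.07e-12), Nr4a3 by 3.76 ± 0.45 (adjusted p = 1.17e-05) and Ier2 by 1.07 ± 0.08 (adjusted p = 1.03e-07). Nr4a3 had 3, 11 and 5 counts in LPS+ tlr4f/f. It passed the filter only through the higher group, so the size of its difference is uncertain. Ier2 was close to the fold threshold, at 2.10-fold. Egr2 differed by -0.66 ± 0.07 (adjusted p = 2.45e-06), which is past the p threshold and under the fold threshold. Egr1 differed by -0.91 ± 0.30 (adjusted p = 0.0338), Egr3 by -1.21 ± 0.52 (0.0619), Nr4a2 by 0.99 ± 0.39 (0.0444) and Nr4a1 by 0.06 ± 0.21 (0.835). The groups did not overlap for 5 of the 8 genes, as for 67.3% of all genes tested. The 3 calls were made in every fit without 1 library. Egr3 was called as well without LPS+ tlr4f/f replicate 3 (-1.67, adjusted p = 0.00296), and Egr1 without LPS+ tlr4f/f-lysM-cre replicate 1 (-1.27, adjusted p = 0.00113).

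Between these 2 comparisons, 7 of the 8 genes differed in the same direction, as did 81.6% of the 13922 genes tested in both. Only Ier2, Ier3 and Nr4a3 were called in both, so for the other 5 the test gives no shared direction. Egr1 had a positive difference in the first and a negative one in the second. The small second difference of Nr4a1 changed sign with single libraries left out.

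**Figure D2:**
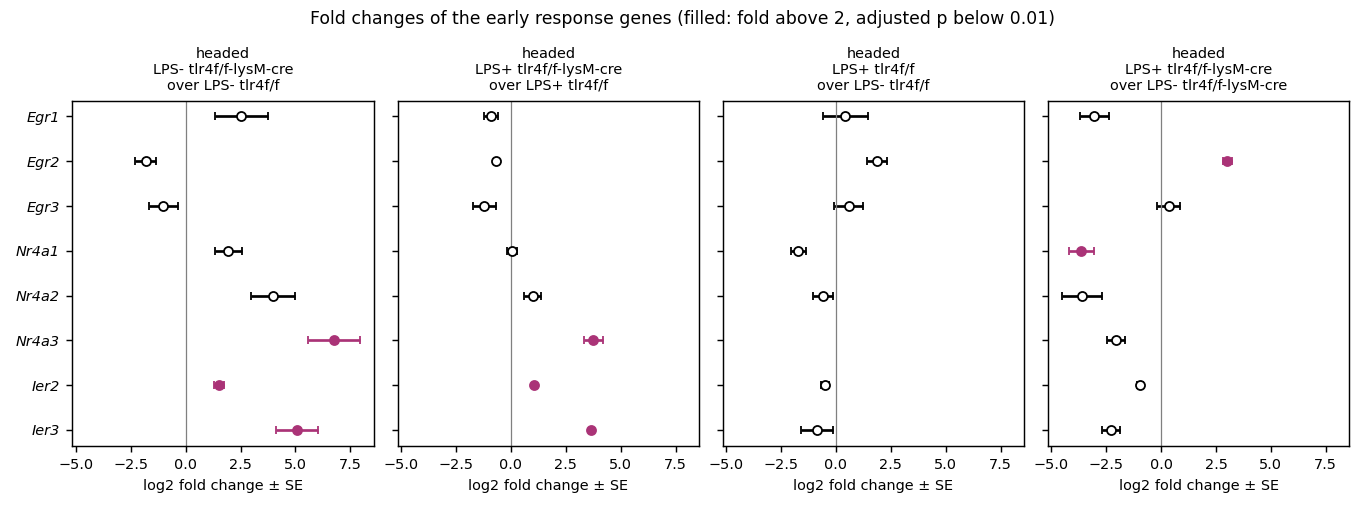
Log2 fold change ± SE (edgeR) of each early response gene in 4 comparisons of the groups as headed; filled points were called. Ier2, Ier3 and Nr4a3 are filled in the 2 comparisons of tlr4f/f-lysM-cre with tlr4f/f headings, Egr2 (3.02) and Nr4a1 (-3.63) in the comparison at the right, and Nr4a3 was not tested in LPS+ tlr4f/f over LPS- tlr4f/f.

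LPS+ tlr4f/f over LPS- tlr4f/f asked about LPS in tlr4f/f cells as headed, and about the genotype without LPS under the exchange. None of the 7 genes tested was called, as none of the 14712 genes tested was (0%). At the looser p of 0.05, none of the 7 and 0.625% of all genes were called. Nr4a3 was too low to be tested. In edgeR, 3 of the 7 genes had an unadjusted p below 0.05, as did 3626 of all 14712 genes. DESeq2 called Egr2 and Nr4a1, among 467 genes in all. Egr2 differed by 1.87 ± 0.46 on the log2 scale (adjusted p = 0.0863) and Nr4a1 by -1.72 ± 0.35 (adjusted p = 0.0636). Ier2 differed by -0.50 ± 0.18 (adjusted p = 0.157) and Ier3 by -0.85 ± 0.72 (adjusted p = 0.509). The differences of Egr1 (0.43 ± 1.04), Egr3 (0.58 ± 0.66) and Nr4a2 (-0.60 ± 0.47) were of the size of their errors. The groups did not overlap for Egr2, Nr4a1 and Ier2, as for 34.8% of all genes tested. Without LPS- tlr4f/f replicate 2, in which Egr2 was high, Egr2 differed by 2.60 (adjusted p = 0.0046) and was called.

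LPS+ tlr4f/f-lysM-cre over LPS- tlr4f/f-lysM-cre asked about LPS in tlr4f/f-lysM-cre cells as headed, and about the genotype with LPS under the exchange. Egr2 rose and Nr4a1 fell, and the other 6 genes were not called. Among all 14245 genes tested, 6.09% were called (2.42% higher, 3.66% lower), and 6 of the 8 and 13.9% of all genes at the looser p of 0.05. Egr2 was higher by 3.02 ± 0.21 on the log2 scale, or 8.10-fold (adjusted p = 0.000962). Nr4a1 differed by -3.63 ± 0.58 (adjusted p = 0.00752). Close to the threshold, Ier3 differed by -2.28 ± 0.42 (adjusted p = 0.0111), Nr4a3 by -2.06 ± 0.40 (0.0134), Egr1 by -3.04 ± 0.66 (0.0186) and Nr4a2 by -3.61 ± 0.92 (0.03). Ier2 differed by -0.97 ± 0.13 (adjusted p = 0.0046), under the fold threshold, and Egr3 by 0.34 ± 0.52 (0.662). The groups did not overlap for 7 of the 8 genes, as for 48.4% of all genes tested, and DESeq2 called those 7 among 2006 genes in all. Leaving out 1 library gave 0 to 5 calls. There were 0 when any 1 of the 3 LPS+ tlr4f/f-lysM-cre libraries was left out. Without LPS- tlr4f/f-lysM-cre replicate 1 the 2 calls were Egr2 and Ier3, and without its replicate 3 they were Egr2 and Nr4a3. Nr4a1 was lost in both (adjusted p = 0.0123 and 0.0134). Without replicate 2 of that group 5 genes were called, Egr2 and Nr4a1 among them. Over these fits the adjusted p was 0.000708 to 0.0142 for Egr2 and 0.00052 to 0.0489 for Nr4a1. The Nr4a1 call was lost with no filter on low counts (adjusted p = 0.0185), with the replicate block (0.0267) and with the sum over transcripts (0.011), in which Egr2 was called. Over all genes the count moved from 867 to 4, 7 and 15 without an LPS+ tlr4f/f-lysM-cre library and to 935, 1125 and 1180 without an LPS- tlr4f/f-lysM-cre library.

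LPS+ tlr4f/f-lysM-cre over LPS- tlr4f/f has the same meaning under both readings, cells with LPS and the transgene against cells with neither. None of the 8 genes was called in edgeR, against 13.4% of all 14595 genes tested (6.93% higher, 6.45% lower). At the looser p of 0.05, 3 of the 8 and 20.9% of all genes were called. An unadjusted p below 0.05 was found for 5 of the 8 and for 7306 of all genes, and DESeq2 called Nr4a1, Nr4a3 and Ier3 among 2968 genes. Nr4a3 differed by 4.70 ± 1.05 on the log2 scale (adjusted p = 0.0147), Ier3 by 2.80 ± 0.74 (0.0265) and Nr4a1 by -1.68 ± 0.35 (0.0114). With 11, 0 and 1 counts in LPS- tlr4f/f, Nr4a3 passed the filter only through the higher group, so the size of its difference is uncertain. Ier2 differed by 0.55 ± 0.18 (adjusted p = 0.0498) and Egr2 by 1.19 ± 0.45 (0.0802). Egr1, Egr3 and Nr4a2 differed by -0.49 ± 1.08, -0.68 ± 0.48 and 0.38 ± 0.51. Nr4a3 was called without LPS- tlr4f/f replicate 1 (adjusted p = 0.00204), Egr2 and Nr4a1 without its replicate 2 (0.000808 and 0.00517) and Ier3 without its replicate 3 (0.000531). Over the alternative settings, the Nr4a3 difference ranged from 4.68 to 7.37. The value of 7.37 came without LPS- tlr4f/f replicate 1. The other libraries of that group held 0 and 1 counts, so this size and the Nr4a3 call made there are uncertain.

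The interaction of genotype and LPS is also the same contrast under both readings. None of the 8 genes was called in edgeR, against 0.994% of 15792 genes tested (0.589% higher, 0.405% lower) and 3.95% at the looser p of 0.05. There was an unadjusted p below 0.05 for 5 of the 8 and for 3692 of all genes, and DESeq2 called 657 genes and none of the 8. The estimate was negative for 7 of the 8 genes, which under either reading means a lower value in LPS+ tlr4f/f-lysM-cre than the sum of the separate differences. The largest were -3.46 ± 1.33 for Egr1 (adjusted p = 0.147), -3.05 ± 1.23 for Nr4a3 (0.163) and -2.99 ± 1.06 for Nr4a2 (0.118). Nr4a1 was at -1.90 ± 0.68 (adjusted p = 0.123), Ier3 at -1.42 ± 0.88 (0.368), Ier2 at -0.46 ± 0.22 (0.251) and Egr3 at -0.23 ± 0.89 (0.904). Egr2 was the exception, at 1.15 ± 0.52 (adjusted p = 0.212).

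The Egr2 reads did not fall on its transcripts in the same proportion in every group. The transcript with the highest total was a predicted one of 8183 bases, and the curated transcript has 2965 bases. The curated transcript held 33.4%, 69.0% and 37.9% of the count of the long one in LPS- tlr4f/f, and 59%, 47.6% and 50.4% in LPS- tlr4f/f-lysM-cre. It held 83.0%, 84.2% and 84.7% in LPS+ tlr4f/f and 74.3%, 74.7% and 79.5% in LPS+ tlr4f/f-lysM-cre. Every LPS+ library lay above every LPS- library, which under the exchange is tlr4f/f-lysM-cre above tlr4f/f.

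The curated transcript ranged from 5.45 to 11.0 CPM in LPS- tlr4f/f-lysM-cre and from 162.6 to 168.5 CPM in LPS+ tlr4f/f. The counts of the long transcript beyond the curated one were 24.2 ± 5.88, 7.05 ± 0.91, 31.5 ± 2.01 and 29.3 ± 1.26 CPM (SD, n = 3) in LPS- tlr4f/f, LPS- tlr4f/f-lysM-cre, LPS+ tlr4f/f, then LPS+ tlr4f/f-lysM-cre. Only LPS- tlr4f/f-lysM-cre was set apart in these further counts, while the curated transcript overlapped between none of the 4 groups. The LPS- groups nearly met, at 11.05 CPM in the lowest LPS- tlr4f/f library and 11.00 in the highest LPS- tlr4f/f-lysM-cre library. With the curated transcript, Egr2 was higher by 3.54 on the log2 scale in LPS+ tlr4f/f-lysM-cre over LPS- tlr4f/f-lysM-cre (adjusted p = 0.00113), a fit chosen after the transcripts were seen. Counts were given per transcript with shared reads, so that reads outside the curated transcript cannot be given to a particular start or end.

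**Figure D3:**
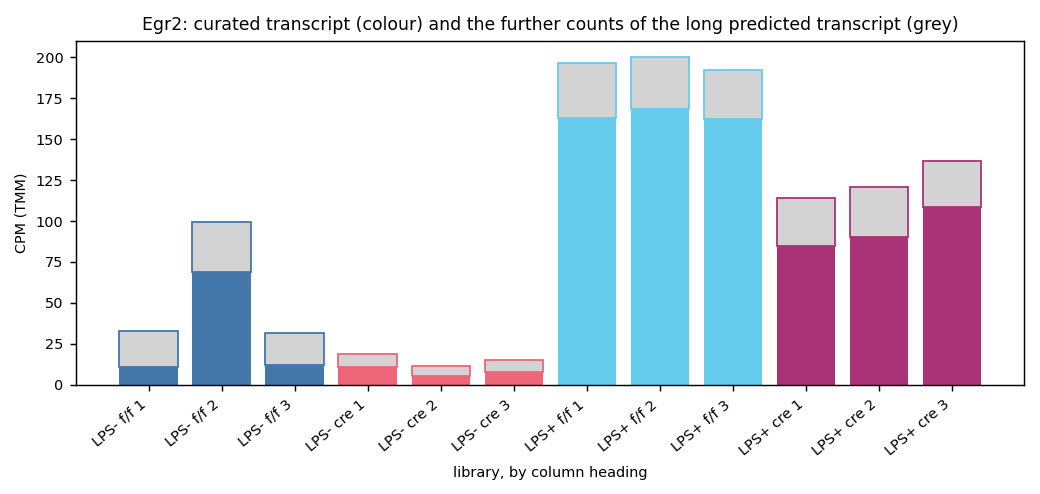
Egr2 in each library by column heading: the coloured bar is the CPM of the curated transcript and the grey bar the further CPM counted on the long predicted transcript. The grey part is 28.04 to 33.4 CPM in the LPS+ libraries and 6.00 to 7.64 CPM in the LPS- tlr4f/f-lysM-cre libraries.

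Within the LPS- groups, Egr1 and Nr4a2 varied together with stroma markers. Col1a1, a collagen gene of fibroblasts, was at 344, 30.03 and 2.27 CPM in LPS- tlr4f/f and at 463, 58.5 and 596 in LPS- tlr4f/f-lysM-cre, against 6.02 to 13.9 in the LPS+ libraries. Col3a1 was at 56.2, 5.39 and 2.92 CPM and at 99.1, 16.6 and 246 in the same 2 groups. In each of these groups, Egr1 and Nr4a2 had the same order of libraries as the collagen genes, except that Nr4a2 was nearly equal in LPS- tlr4f/f replicates 2 and 3. Nr4a1 was high in the same 3 libraries, with replicate 1 of LPS- tlr4f/f-lysM-cre above replicate 3. So was Ier3, at 19.5, 13.3 and 1.957 CPM in LPS- tlr4f/f, the order of the collagen genes, and 655, 211 and 287 in LPS- tlr4f/f-lysM-cre. Ier2 was highest in these libraries as well, by smaller steps, while Nr4a3, Egr2 and Egr3 did not follow them in both groups. Neutrophil markers (9 genes) summed to 0.646 to 12.8 CPM in LPS- tlr4f/f, 13.0485 to 166.7 in LPS- tlr4f/f-lysM-cre, 4.75 to 6.72 in LPS+ tlr4f/f and 5.31 to 7.31 in LPS+ tlr4f/f-lysM-cre, with S100a8 at 123 CPM in LPS- tlr4f/f-lysM-cre replicate 3 and at 0.461 to 22.8 CPM in the other 11 libraries, while Ly6g was at 0 in 3 of the 4 groups and Retnlg in the 2 LPS+ groups.

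The sum over dendritic cell markers (6 genes) was low. Like Ier3 and Nr4a3, it was higher in both tlr4f/f-lysM-cre groups than in the tlr4f/f groups, which overlapped. The markers summed to 0.258 to 0.940 CPM in LPS- tlr4f/f, 4.90 to 13.1 in LPS- tlr4f/f-lysM-cre, 0.506 to 1.12 in LPS+ tlr4f/f and at least 3.22 in LPS+ tlr4f/f-lysM-cre. Xcr1, a chemokine receptor gene named here after its values were seen, was at 2.06 to 5.36 CPM in the tlr4f/f-lysM-cre libraries and at 0.315 CPM or less in the tlr4f/f libraries. Besides Xcr1, the sums of LPS- tlr4f/f-lysM-cre held Ccr7, at 8.60, 1.81 and 0.244 CPM. Clec9a did not divide the groups in this way, at 0.122 to 0.467 CPM in LPS+ tlr4f/f and 0.116 to 0.330 in LPS+ tlr4f/f-lysM-cre. Both were also named after their values were seen. Flt3 was at 0.0551 CPM or less in every library, and Siglech was at 0 in LPS- tlr4f/f. Lymphocyte markers (7 genes) summed to 0.496 to 1.36, 2.18 to 6.95, 0.467 to 0.903 and 1.02 to 1.27 CPM in LPS- tlr4f/f, LPS- tlr4f/f-lysM-cre, LPS+ tlr4f/f, then LPS+ tlr4f/f-lysM-cre.

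Without the 3 libraries highest in stroma markers (LPS- tlr4f/f replicate 1 and LPS- tlr4f/f-lysM-cre replicates 1 and 3), a choice made after the markers were seen, 1 library was left of LPS- tlr4f/f-lysM-cre. Its spread is then taken from the other group of the fit. That does not hold in LPS+ tlr4f/f-lysM-cre over LPS- tlr4f/f-lysM-cre, where the coefficients of variation were 8.37% and 30.8%, so the log2 differences are given as values without a test. In that comparison they were -1.27 for Egr1, -1.95 for Nr4a1, -1.70 for Nr4a2, -1.85 for Nr4a3, -1.43 for Ier3, -0.80 for Ier2 and 0.28 for Egr3, each nearer to 0 than with all libraries, while Egr2 was farther from 0, at 3.40. In LPS- tlr4f/f-lysM-cre over LPS- tlr4f/f, they were 0.64 for Nr4a1, 2.62 for Nr4a2, 2.13 for Egr1, -2.44 for Egr2, -1.07 for Egr3, 1.503 for Ier2 and 4.87 for Ier3. The Nr4a1, Nr4a2 and Egr1 differences were smaller than with all libraries, that of Egr2 was larger, and those of Ier2, Ier3 and Egr3 were of like size. For Nr4a3 no size is given, since the remaining LPS- tlr4f/f libraries held 0 and 1 counts. The part of stroma, neutrophil, dendritic cell or lymphocyte RNA in these results was not tested.

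**Figure D4:**
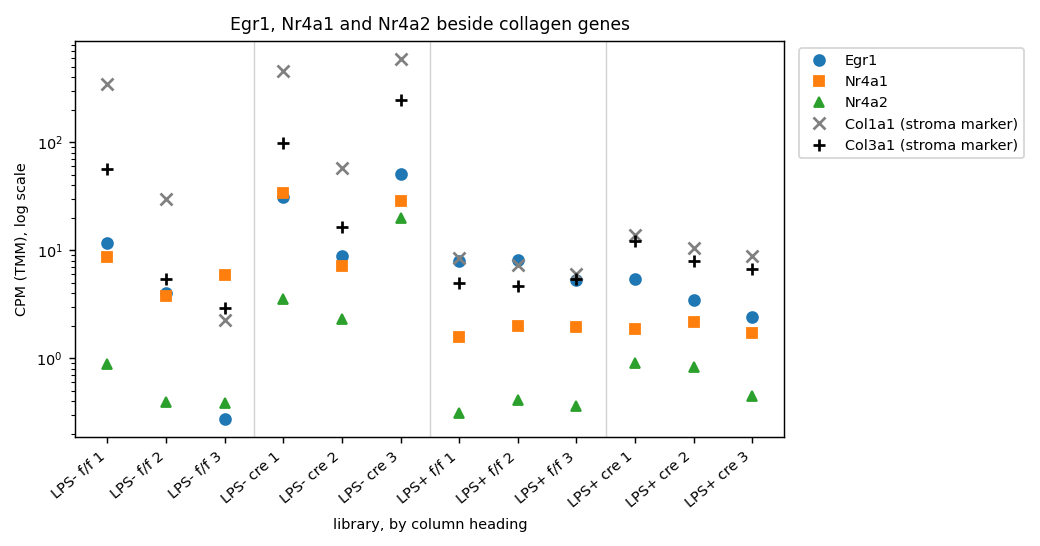
Egr1, Nr4a1 and Nr4a2 beside Col1a1 and Col3a1 in the 12 libraries by column heading (TMM-scaled CPM, log axis). The libraries with Col1a1 at 344 CPM or more hold the highest Egr1, Nr4a1 and Nr4a2 values of their group, and Egr1 is lowest (0.277 CPM) where Col1a1 is lowest (2.27 CPM).

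The other genes of the pathway are described from lists made with earlier results of these data known. Of 18 upstream genes of the ERK, SRF and CREB routes, 3 rose and 1 fell in LPS- tlr4f/f-lysM-cre over LPS- tlr4f/f, where 9.26% of all genes rose and 7.81% fell. Map3k8, which encodes the kinase TPL2, was at 9.95, 12.6 and 12.1 CPM in LPS- tlr4f/f and at 99.4, 138 and 96.1 in LPS- tlr4f/f-lysM-cre, a difference of 3.28 ± 0.20 on the log2 scale (adjusted p = 0.00041). Map2k1, which encodes the ERK kinase MEK1, rose by 1.62 ± 0.16 (adjusted p = 0.00104), and Mkl1, an SRF coactivator gene, fell by 1.25 ± 0.19 (adjusted p = 0.00358).

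Map3k8 was also the gene of this list that rose in LPS+ tlr4f/f-lysM-cre over LPS+ tlr4f/f, by 2.16 ± 0.06 (adjusted p = 3.86e-11), from 12.7 to 14.1 CPM to 59.7 to 60.8 CPM. Elk3, an SRF partner, fell by 1.07 ± 0.09 (adjusted p = 6.67e-07). Over all genes, 10.8% rose and 10.9% fell in this comparison. In LPS+ tlr4f/f over LPS- tlr4f/f and in LPS+ tlr4f/f-lysM-cre over LPS- tlr4f/f-lysM-cre, none of the 18 was called, beside 0% and 6.09% of all genes. The median difference of the list was 0.40 in LPS- tlr4f/f-lysM-cre over LPS- tlr4f/f, beside -0.08 over all genes tested, and from -0.17 to 0.24 in the other 5 comparisons, interaction included. In LPS+ tlr4f/f-lysM-cre over LPS- tlr4f/f, 2 of the 18 rose, Map3k8 (2.38 ± 0.11) and the kinase gene Braf (1.20 ± 0.10), and 2 fell, Elk3 (-1.82 ± 0.12) and Mkl1 (-1.17 ± 0.10), beside 6.93% and 6.45% of all genes.

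Of 8 partners and relatives of the EGR and NR4A proteins, 7 were tested and Egr4 was at or near 0 in every library. Nab1, an EGR corepressor, was at 70.1 to 92.8 CPM in LPS- tlr4f/f, 156 to 209 in LPS- tlr4f/f-lysM-cre, 57.3 to 60.7 in LPS+ tlr4f/f and 80.6 to 85.6 in LPS+ tlr4f/f-lysM-cre. It rose by 1.25 ± 0.19 in LPS- tlr4f/f-lysM-cre over LPS- tlr4f/f (adjusted p = 0.00404), where 9.26% of all genes rose. It fell by 1.22 ± 0.15 in LPS+ tlr4f/f-lysM-cre over LPS- tlr4f/f-lysM-cre (adjusted p = 0.00327), where 3.66% of all genes fell. These comparisons share a group. Nab2 did not pass in any comparison. Ier5l, a relative of Ier2, fell by 4.17 ± 0.17 in LPS+ tlr4f/f-lysM-cre over LPS+ tlr4f/f (adjusted p = 6.9e-10), from 15.1 to 20.3 CPM to 0.719 to 1.11 CPM. Of all genes, 10.9% fell there. Ier5l (-2.77 ± 0.31) and Rxra (-1.37 ± 0.15), the RXR gene, fell in LPS+ tlr4f/f-lysM-cre over LPS- tlr4f/f, where 6.45% of all genes fell. No other gene of the 7 was called in these comparisons.

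Of 30 other immediate-early genes, 8 rose and 2 fell in LPS- tlr4f/f-lysM-cre over LPS- tlr4f/f (9.26% and 7.81% of all genes), with a median difference of 0.85 on the log2 scale beside -0.08 over all genes. Dusp2, a phosphatase of MAP kinases, was higher by 6.15 ± 0.82 (adjusted p = 0.00274), and Gadd45b, a stress sensor gene, by 4.12 ± 0.44 (adjusted p = 0.00135). Npas4 fell by 5.22 ± 0.76 (adjusted p = 0.00334) and Klf10, a TGF-beta response gene, fell by 1.71 ± 0.25 (adjusted p = 0.00316). Npas4 was at 0.0613 to 0.346 CPM in LPS- tlr4f/f-lysM-cre, near the lower end of detection, so the size of its fall is uncertain.

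Of the 29 tested in LPS+ tlr4f/f-lysM-cre over LPS+ tlr4f/f, 12 rose and 7 fell (10.8% and 10.9% of all genes), with a median difference of 0.51 beside -0.02 over all genes. Gadd45b rose by 2.63 ± 0.09 (adjusted p = 2.26e-09) and Dusp2 by 2.502 ± 0.20 (adjusted p = 1.22e-05), from 4.07 to 4.68 CPM to 17.3 to 28.6 CPM. Fosb, an AP-1 subunit, fell by 4.31 ± 0.62 (adjusted p = 6.42e-05) and Npas4 fell by 2.995 ± 0.21 (adjusted p = 3e-07). In LPS+ tlr4f/f-lysM-cre, Fosb was at 0.0223 to 0.0275 CPM, under the level of 3 counts in those libraries (0.0669 to 0.0826 CPM). It was tested only through the higher group, so the size of its fall is uncertain. Between these 2 comparisons, 26 of the 29 genes tested in both (89.7%) differed in the same direction, as did 81.6% of all genes tested in both. Fos, the gene of another AP-1 subunit, was not called in any comparison.

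Klf10 alone rose of the 28 tested in LPS+ tlr4f/f-lysM-cre over LPS- tlr4f/f-lysM-cre, by 1.80 ± 0.18 (adjusted p = 0.0019), and 8 fell (2.42% and 3.66% of all genes). Dusp2 fell by 2.77 ± 0.29 (adjusted p = 0.00228) and Dusp1 fell by 2.60 ± 0.33 (adjusted p = 0.00377). Without LPS+ tlr4f/f-lysM-cre replicate 1 or 2, only 4 or 7 genes in all were called, so not all of these calls were kept. None of 29 was called in LPS+ tlr4f/f over LPS- tlr4f/f, and 8 rose and 5 fell of 29 in LPS+ tlr4f/f-lysM-cre over LPS- tlr4f/f (6.93% and 6.45% of all genes). There, Gadd45b (2.95 ± 0.32) and Maff (2.43 ± 0.44), a small MAF factor gene, rose, and Fosb (-5.27 ± 0.51) and Klf2 (-2.83 ± 0.43), a Kruppel-like factor gene, fell. The size of the Fosb fall is again uncertain, given its low level in LPS+ tlr4f/f-lysM-cre. In the interaction, 2 of 30 were called, against 0.994% of all genes. Klf4, a factor of monocyte differentiation, had -2.66 ± 0.32 (adjusted p = 0.00251), and Junb, an AP-1 subunit, had -1.57 ± 0.19 (adjusted p = 0.00251). Klf4 was at 18.2 to 22.9, 16.9 to 29.7, 26.4 to 31.6 and 4.30 to 6.46 CPM in LPS- tlr4f/f, LPS- tlr4f/f-lysM-cre, LPS+ tlr4f/f, then LPS+ tlr4f/f-lysM-cre.

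**Figure D5:**
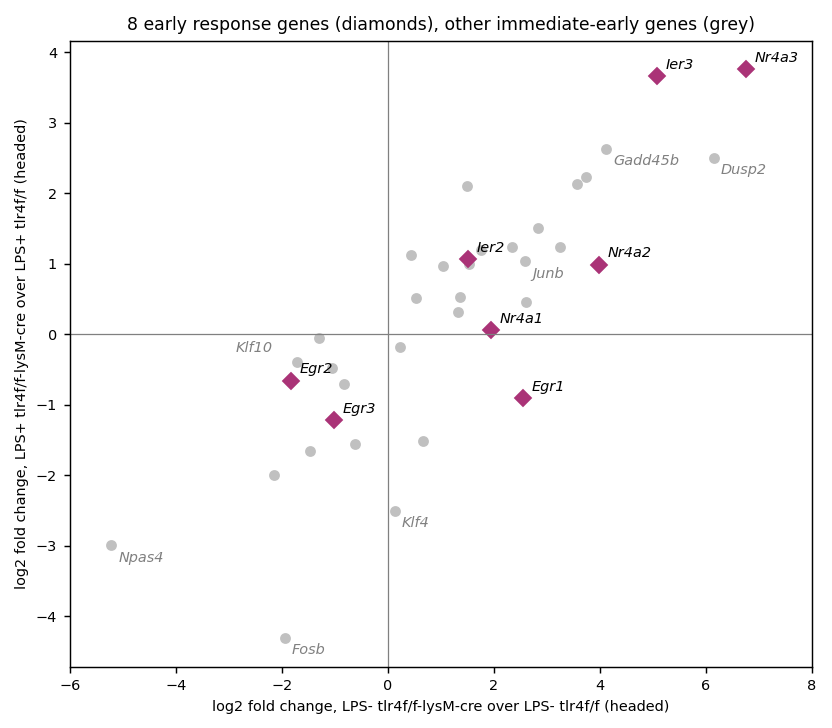
Log2 fold change of the 8 early response genes (diamonds) and of 29 other immediate-early genes (grey points) in LPS- tlr4f/f-lysM-cre over LPS- tlr4f/f (x axis) and in LPS+ tlr4f/f-lysM-cre over LPS+ tlr4f/f (y axis), groups as headed, which share no library. Nr4a3 (6.75 and 3.76) and Ier3 (5.07 and 3.66) are at the upper right, and Egr1 is the early response gene with values of opposite sign.

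Over the 12 libraries, log2 CPM of Ier3 and Nr4a3 had a Pearson r of 0.93, Ier2 and Ier3 of 0.90, and Egr2 and Nr4a1 of -0.88. These r values describe 12 points that fall into 4 groups and carry no test. Among genes that passed the filter with at least 100 counts in their highest library, the genes most like each member by this r were Inhba (0.99) and Gnb1 (0.99) for Ier3, Atxn7l3b (0.98) and Trmt112 (0.98) for Nr4a3, and Cep170 (0.99) and Il17ra (0.98) for Ier2. For Egr2 they were Lsm5 (0.98) and Gabarapl1 (0.98), for Nr4a1 Sh3bgrl2 (0.98) and Brpf3 (0.95), for Nr4a2 Zfp143 (0.96) and Yy1 (0.96), and for Egr1 Epb41l3 (0.94) and Thrap3 (0.92). Egr3 had the lowest values, 0.86 for an unnamed Ensembl gene and 0.83 for Mplkip. Inhba, which encodes the activin A subunit, was at 238, 77.6 and 70.7 CPM in LPS- tlr4f/f-lysM-cre and at 22.1 to 25.5 CPM in LPS+ tlr4f/f-lysM-cre, against 2.84 CPM or less in the tlr4f/f groups. No member was among the genes most like another.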

How the data were processed

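RNA of 12 BMDM libraries was sequenced as 2 × 150 bp reads. The labels name both an rRNA removal kit and polyA RNA. According to the submitters' processing notes and the study's methods, reads were trimmed (Trimmomatic 0.36), aligned to mm10 with HISAT2 and counted with HTSeq. The table that the authors deposited holds whole-number counts for 115140 transcripts, without normalization. Transcripts of a gene share reads, so 1 transcript per gene (the highest total) was taken for 43453 genes. Strand use in counting is not given in the sources used here, and no annotated gene overlaps a member, while Il1b overlaps the antisense gene Il1bos.

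Groups follow the column headings. Levels are CPM with TMM factors over all 12 libraries. Each comparison used edgeR 4.0.16 (R 4.3.3): filterByExpr, TMM, robust quasi-likelihood fit and test, 6 libraries per comparison and 12 for the interaction, with Benjamini-Hochberg adjustment over all genes tested. Calls required a change of over 2-fold and p below 0.01 after adjustment, the thresholds of the study, which used DESeq. The tests were tested on simulated data. Alternatives were DESeq2 1.42.0, RLE factors, no filter beyond 1 count, all 12 libraries in 1 fit, a looser threshold (0.05) for p, blocking on the replicate number, the sum over transcripts and each library left out. The curated transcript of each member and the removal of the 3 libraries highest in stroma markers were added after seeing the data. The members and lists were chosen with earlier results of these data known. Named genes are all members, Tlr4, Lyz2 and Il1b, the 2 largest called changes in each direction of each list and comparison, and the 2 genes most like each member (log2 CPM, prior count 2). Collagen genes, S100a8, Nab1 with its levels and Fos were named after their values were seen. Starts and sequences are from GENCODE M21 and RefSeq in GRCm38, with promoters matched for 5 members. Replicates of each group differed by more than sampling noise. Intervals of counts cover counting error only, as reads carry no molecular identifiers.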

Additional observations from a re-analysis of the deposited data

How the results depend on the processing

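Of 737 alternative values of single genes, 10 changed sign, and none of these passed in either fit. With 1 library left out, Egr1 in LPS+ tlr4f/f over LPS- tlr4f/f ranged from -0.12 to 1.77, Egr3 in LPS+ tlr4f/f-lysM-cre over LPS- tlr4f/f-lysM-cre from -0.0075 to 0.73, Nr4a1 in LPS+ tlr4f/f-lysM-cre over LPS+ tlr4f/f from -0.039 to 0.13, Egr1 in LPS+ tlr4f/f-lysM-cre over LPS- tlr4f/f from -1.05 to 0.83 and Egr3 in the interaction from -0.70 to 0.17. Egr1 in LPS+ tlr4f/f-lysM-cre over LPS- tlr4f/f was at 0.39 with the replicate block and at 0.83 without the 3 libraries highest in stroma markers.

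The number of the 8 genes called moved as follows, with the number over all genes in brackets, and the cause was not tested. In LPS+ tlr4f/f over LPS- tlr4f/f (0 called [0]), DESeq2 called 2 [467], and 0 to 1 were called with a library left out [0 to 182]. In LPS+ tlr4f/f-lysM-cre over LPS- tlr4f/f-lysM-cre (2 called [867]), 7 were called by DESeq2 [2006], 6 at an adjusted p below 0.05 [1985], 5 without the stroma-rich libraries [2474], 1 with the replicate block [212], 1 with the sum over transcripts [691], 3 with RLE factors [873], 3 with all 12 libraries in 1 fit [1147] and 0 to 5 with a library left out [4 to 1180]. With no filter 2 were called [1024], Nr4a3 in place of Nr4a1. In LPS- tlr4f/f-lysM-cre over LPS- tlr4f/f (3 called [2500]), 6 were called by DESeq2 [3997], with all 12 libraries in 1 fit [4258] and at an adjusted p below 0.05 [4064], 1 with no filter [2716], 1 with the sum over transcripts [2194], 0 without the stroma-rich libraries [0] and 0 to 2 with a library left out [1039 to 1683]. A left-out library gave 3 to 4 calls in LPS+ tlr4f/f-lysM-cre over LPS+ tlr4f/f (3 called [3165]) [3022 to 3156], and every other setting gave 3 [2053 to 3510]. In LPS+ tlr4f/f-lysM-cre over LPS- tlr4f/f (0 called [1952]), DESeq2 called 3 [2968], the looser p gave 3 [3047], all 12 libraries gave 2 [2429], no filter gave 1 [1954], the stroma-rich libraries left out gave 1 [1919] and a single library left out gave 0 to 2 [593 to 2287]. In the interaction, 0 were called throughout [10 to 657]. Where LPS- tlr4f/f-lysM-cre is compared, the counts without the stroma-rich libraries rest on 1 of its libraries and the spread of the rest, and say nothing of stability. In LPS+ tlr4f/f-lysM-cre over LPS- tlr4f/f only LPS- tlr4f/f replicate 1 is left out.

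Same-numbered libraries deviated together only in part (r from -0.04 to 0.47), so the numbers were not taken as pairs. With the replicate block, 0 [0], 2 [2202], 3 [3250] and 0 [921] of the 8 genes were called in LPS+ tlr4f/f over LPS- tlr4f/f, LPS- tlr4f/f-lysM-cre over LPS- tlr4f/f, LPS+ tlr4f/f-lysM-cre over LPS+ tlr4f/f, then LPS+ tlr4f/f-lysM-cre over LPS- tlr4f/f. Of the 8 genes, Egr3 and Nr4a3 had the lowest counts, as few as 5 and 0 in a library.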
